A study of Mus musculus with 10 samples.

Results

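The genes described here are those that encode the Notch receptors, their ligands and one enzyme that tunes them. They comprise the 4 receptors *Notch1*, *Notch2*, *Notch3* and *Notch4*, the 5 ligands *Dll1*, *Dll3*, *Dll4*, *Jag1* and *Jag2*, and the glycosyltransferase *Lfng*. They were chosen by name and not by a measured value, though earlier results of these data were known. They make up 10 of the 22359 nuclear protein-coding genes examined. The data are peak lists from ChIP-seq with a *Drosophila* S2 spike-in (ChIP-Rx) on mCherry+ cells sorted from embryoid bodies (EBs), aggregates of differentiating mouse embryonic stem cells, at day 4. The WT line was *Scl:mCherry* (genotype label Scl wt), whose SCL is functional. The Delta line was *Scl Δ/Δ:mCherry* (genotype label Scl d/d), in which SCL, also called TAL1, lacks the basic helix-loop-helix domain that it needs to act. Without SCL, blood does not form. Both lines carried mCherry at *Scl* and both were sorted for it, and the labels name no treatment. By the study's methods the WT line was made from J1 embryonic stem cells, with mCherry on 1 *Scl* allele, and the Delta line was made from the WT line. Each was grown from single sorted cells, so a difference between the lines may also be one between clones, which cannot be told apart here. Antibodies against H3K4me3, H3K27me3, H2AK119ub and H3K27ac were used, which gives 8 libraries with a peak list, while the 2 input libraries were left out. Each mark had a single library (n = 1) in either genotype. A difference between WT and Delta given here is therefore a difference between 1 library and another, with no replicate check and no test. The strain labels read C57Bl/6 X Sv129 in 3 libraries and the same cross with a number that counts up to 136 in the others, although both lines share the J1 origin. The strain numbers were not used.

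Notch receptors are cell surface proteins that are cut when a Delta-like or Jagged ligand on a neighbouring cell binds them. The part set free enters the nucleus and turns the DNA-binding protein RBPJ into an activator of Hes and Hey genes. Fringe enzymes such as LFNG add sugars to the receptor and so change which ligands it responds to. In early mesoderm the pathway is known for somite segmentation, for arterial endothelium and for the emergence of definitive blood from it. H3K27me3 is laid down by the Polycomb complex PRC2 and H2AK119ub by PRC1, mostly at silenced genes. H3K4me3 marks CpG-rich start sites, and H3K27ac marks active promoters and enhancers. A start site that carries both H3K4me3 and H3K27me3 is called bivalent. Day 4 mCherry+ cells are a mixed population, and a peak list cannot tell marks on the same chromosomes from marks in different cells.

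The start sites of these genes differed widely in sequence, and 6 of them are shown because they span the range from CpG-poor starts without H3K4me3 to the most CpG-rich start of the set. Each run is the 250 bases before a transcription start site (TSS), read 5′ to 3′ on the strand of the gene from NCBIM37 (mm9), with every CpG in capitals. The upstream start of *Notch1* lies at chr2:26372184-26372433 and its downstream start, at which the longest coding transcripts begin, at chr2:26359343-26359592, both on the minus strand. The runs of *Notch2* (chr3:97817211-97817460), *Notch4* (chr17:34700963-34701212) and *Dll4* (chr2:119151270-119151519) are on the plus strand, and that of *Jag2* (chr12:114167707-114167956) is on the minus strand.
Notch1, upstream start: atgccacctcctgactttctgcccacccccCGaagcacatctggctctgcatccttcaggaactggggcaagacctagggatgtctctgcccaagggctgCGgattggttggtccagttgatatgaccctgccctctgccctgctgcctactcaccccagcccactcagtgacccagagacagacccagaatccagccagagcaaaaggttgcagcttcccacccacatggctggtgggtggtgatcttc
Notch1, downstream start: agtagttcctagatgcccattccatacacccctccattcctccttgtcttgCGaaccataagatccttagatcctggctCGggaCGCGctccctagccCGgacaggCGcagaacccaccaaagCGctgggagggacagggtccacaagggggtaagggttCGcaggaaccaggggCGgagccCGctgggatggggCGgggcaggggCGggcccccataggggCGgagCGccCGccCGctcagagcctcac
Notch2: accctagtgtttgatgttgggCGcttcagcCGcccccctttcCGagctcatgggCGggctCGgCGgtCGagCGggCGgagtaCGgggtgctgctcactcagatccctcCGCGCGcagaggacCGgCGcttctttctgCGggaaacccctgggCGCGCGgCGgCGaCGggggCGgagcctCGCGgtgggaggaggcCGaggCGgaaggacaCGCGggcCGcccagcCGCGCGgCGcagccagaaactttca
Notch4: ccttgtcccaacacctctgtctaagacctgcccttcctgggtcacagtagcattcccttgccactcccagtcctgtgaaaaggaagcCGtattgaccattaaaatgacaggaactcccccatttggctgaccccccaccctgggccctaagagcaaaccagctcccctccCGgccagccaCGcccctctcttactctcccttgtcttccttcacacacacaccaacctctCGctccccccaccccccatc
Dll4: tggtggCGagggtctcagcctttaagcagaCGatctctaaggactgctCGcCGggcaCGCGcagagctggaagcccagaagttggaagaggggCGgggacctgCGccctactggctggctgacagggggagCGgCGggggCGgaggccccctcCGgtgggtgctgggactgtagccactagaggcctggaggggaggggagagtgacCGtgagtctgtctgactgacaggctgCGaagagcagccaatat
Jag2: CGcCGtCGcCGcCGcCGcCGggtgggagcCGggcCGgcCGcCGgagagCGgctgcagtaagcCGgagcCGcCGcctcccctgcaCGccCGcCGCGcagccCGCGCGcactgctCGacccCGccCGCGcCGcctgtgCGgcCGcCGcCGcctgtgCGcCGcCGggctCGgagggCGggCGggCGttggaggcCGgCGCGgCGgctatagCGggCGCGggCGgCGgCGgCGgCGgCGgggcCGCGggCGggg
The upstream *Notch1* run held 2 CpGs and that of *Notch4* held 4. The downstream *Notch1* run held 16, that of *Dll4* 14, that of *Notch2* 34 and that of *Jag2* 54.

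Over the 300 bases from 250 before to 50 after the TSS, the ratio of observed to expected CpG was 0.542 in the median of all 22359 promoters. It was 0.766 in promoters with a WT H3K4me3 peak within 2500 bp and 0.192 in those without one. The 10 genes have 14 coding starts. The 3 upstream *Notch1* starts, with ratios of 0.0809, 0.119 and 0.0, and the *Notch4* start, with 0.19, fell near or below the median of promoters without H3K4me3, and none of these 4 starts had an H3K4me3 or H3K27me3 peak within 2500 bp in either genotype. The other 10 starts had ratios from 0.452 at the first *Dll3* start to 1.14 at *Jag2*, which exceeded 98.6% of all promoters. Each of these 10 had both H3K4me3 and H3K27me3 in WT. The motif GTGGGAA, a core recognised by RBPJ, was searched on both strands and was present in the windows of *Lfng*, at position -109 from the TSS, and of the first *Notch1* start, at position -34, against 5.93% of all promoters. The second *Notch1* start, 27 bp away, shares the latter match. E-boxes of the form CANNTG, which bHLH factors recognise, were in 69.4% of all promoters and in 9 of the 14 windows here. A GATA motif, searched as AGATAA with T allowed as the first base and G as the last, was in 27.4% of all promoters and in 1 of these windows, that of the second *Dll3* start. Values over all promoters use only the most upstream start of each gene, whereas the windows here cover every coding start. The first and second *Notch1* windows share their E-boxes. A match is a description of the letters only.

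**Figure D1:**
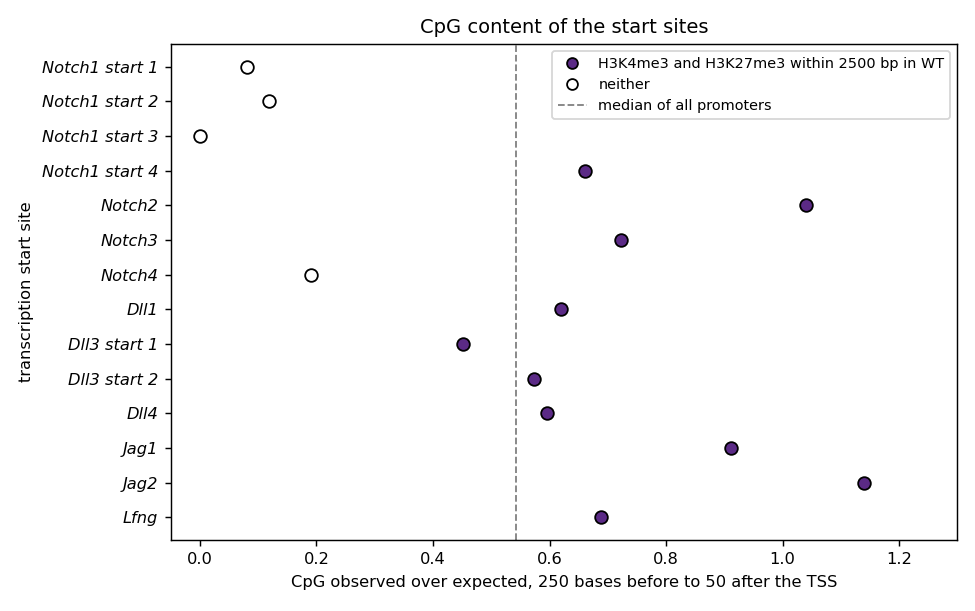
CpG observed over expected (x axis, no unit) in the 300 bases around each of the 14 coding start sites (y axis), with filled points for starts that had both H3K4me3 and H3K27me3 within 2500 bp in WT, open points for starts with neither, and a dashed line at the median of all promoters, 0.542. The 4 open points lie between 0.0 and 0.19, and the filled points between 0.452 and 1.14.

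A gene was counted as carrying a mark when at least 1 peak lay no more than 2500 bp from one of its coding TSSs. Nearly all of these genes were bivalent by that measure. H3K4me3 was called at 9 of the 10 genes in WT and at the same 9 in Delta, all except *Notch4*, while 60.7% of all genes were called in WT and 60.3% in Delta. H3K27me3 was called at 9 in WT and at 7 in Delta, against 34.8% and 32.7% of all genes. H2AK119ub was called at 5 in WT and 3 in Delta, against 9.21% and 5.0% of all genes. H3K27ac was called at 1 gene in WT and 2 in Delta, against 19.9% and 22.8%. Both H3K4me3 and H3K27me3 were called at 9 of the 10 genes in WT and 7 in Delta, where all genes gave 32.4% and 30.1%. H3K27me3 and H2AK119ub were called together at 5 in WT and 3 in Delta, where all genes gave 8.29% and 4.83%. CpG-rich start sites carry these marks more often than others, as the CpG ratios above show for H3K4me3, and the part of CpG content in the counts was not tested.

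**Figure D2:**
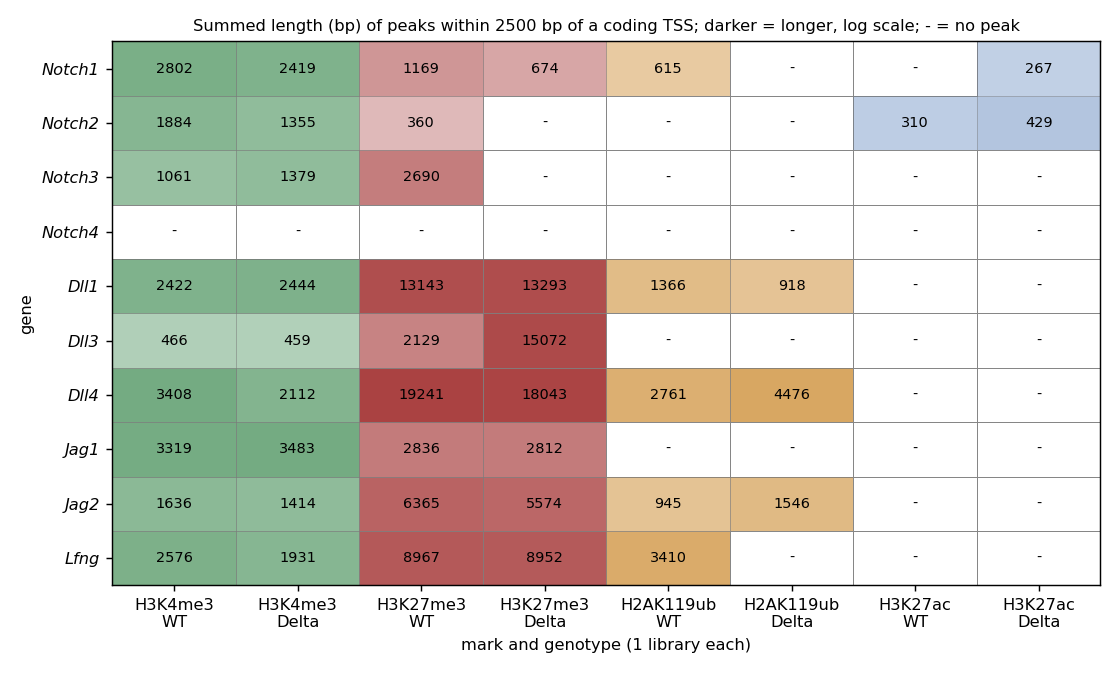
Summed length in bp of the peaks within 2500 bp of a coding TSS for each gene (rows) in each of the 8 peak lists (columns, 1 library each), with darker cells for longer sums on a log scale and a dash where no peak was listed. H3K4me3 fills 9 rows in both genotypes, H3K27me3 is longest at *Dll4* (19241 bp in WT, 18043 bp in Delta), H2AK119ub is listed at 5 genes in WT and 3 in Delta, and H3K27ac only at *Notch1* and *Notch2*.

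The roles differed in how much H3K27me3 they carried. The summed H3K27me3 length at the TSS ran from 0 to 2690 bp over the 4 receptors in WT, with a median of 764.5 bp. Over the 5 ligands it ran from 2129 to 19241 bp, with a median of 6365 bp, and *Lfng* had 8967 bp. In Delta the receptors ran from 0 to 674 bp, the ligands from 2812 to 18043 bp and *Lfng* had 8952 bp. The ranges of receptors and ligands overlapped in WT, where *Notch3* (2690 bp) was longer than *Dll3* (2129 bp), and did not overlap in Delta. This contrast rests on the distance of 2500 bp. At 5000 bp the *Dll3* sum in WT was 7030 bp and the *Notch3* sum in Delta was 2376 bp, and the ranges overlapped in neither genotype, though *Jag1*, the ligand with the shortest sum (2836 bp in WT, 2812 bp in Delta), lay close to *Notch3*. Across all genes with the mark in WT the median was 1725 bp, and *Dll4*, *Dll1* and *Lfng* were longer than 97.4%, 95.2% and 92.1% of those genes. H3K4me3 lengths were closer to each other, at 0 to 2802 bp for receptors and 466 to 3408 bp for ligands in WT. No H3K27ac peak was listed at the TSS of a ligand or of *Lfng* in either genotype. The RNA of these genes was not analysed here, so nothing is said of their expression.

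*Notch1* encodes the receptor that is needed for definitive blood stem cells to form. The gene lies on the minus strand at chr2:26313423-26372183 (ENSMUSG00000026923.8) and has 4 coding starts in the annotation. The longest coding transcripts, with 7593 bp of coding sequence, start at position 26359342, which is 12841 bp downstream of the most upstream start. The marks of active and bivalent promoters lay at this downstream, CpG-rich start. H3K4me3 covered it from 26357159 to 26359960 in WT (2802 bp) and from 26357507 to 26359925 in Delta (2419 bp), with fold enrichments over the local background of 8.36 and 7.15. Both ran over the first exon, and 2398 bp of the WT peak and 2094 bp of the Delta peak were intronic. H3K27me3 lay inside these peaks, 158 bp into the transcript in WT (1169 bp, fold enrichment 3.60) and 319 bp in Delta (674 bp, 3.11). The log2 length ratio of Delta to WT was -0.79 for H3K27me3, above that of 10.7% of the 6216 genes with a peak in both lists.

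H3K27ac at *Notch1* was listed in Delta and not in WT. A peak of 267 bp began 145 bp downstream of the longest transcripts' start, within the H3K4me3 peak, with a fold enrichment of 3.84. A second, of 285 bp and 3.89, lay in an intron 10494 bp from that start. An H3K27ac peak at the TSS in Delta alone was called at 6.37% of all genes, and in WT alone at 3.43%. Both peaks were weak, with a −log10 q of 2.10 and 1.73, and the TSS peak was not kept at a −log10 q of at least 3 or a fold enrichment of at least 4. The intronic peak fell within a stretch where WT, and not Delta, had an H3K4me3 peak of 1134 bp (fold enrichment 3.18). Another WT H3K4me3 peak without a Delta counterpart, of 480 bp and 3.25, lay further downstream in an intron. H2AK119ub was listed only in WT and at the other end, in 615 bases that began at the most upstream start and ran away from the gene (26372182 to 26372796, fold enrichment 3.42, −log10 q 1.43). No H3K4me3 or H3K27me3 peak lay under it. The call at *Notch1* thus joined marks from starts that lay 12841 bp apart. With the most upstream start alone in use, *Notch1* had 0 bp of H3K4me3, H3K27me3 and H3K27ac in both genotypes.

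*Notch2* (plus strand, chr3:97817461-97954290) encodes a broadly expressed receptor, and was the only gene of the set with H3K27ac at its start in both genotypes. The H3K27ac peak was 310 bp long in WT (fold enrichment 4.60) and 429 bp in Delta (5.04), starting 93 and 58 bp into the transcript. H3K4me3 over the start was 1884 bp in WT and 1355 bp in Delta, with fold enrichments of 8.87 and 7.74, a log2 length ratio of -0.48 that was above that of 14.3% of genes. H3K27me3 was listed in WT alone. That peak was 360 bp long, longer than the H3K27me3 sum of 11.8% of called genes, with a fold enrichment of 3.25 and a −log10 q of 2.67. It lay under the H3K4me3 peak and covered the whole of the WT H3K27ac peak. No H2AK119ub peak was listed at *Notch2*.

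*Notch3* (minus strand, chr17:32257765-32303825) encodes a receptor best known in vascular smooth muscle. Its H3K4me3 peak covered the start and was 1061 bp long in WT against 1379 bp in Delta. Its log2 length ratio of 0.38 was above that of 93.8% of genes. Its H3K27me3 lay downstream of that peak and did not touch it. The H3K27me3 peak was 2690 bp long in WT (fold enrichment 5.80) and 2376 bp in Delta (5.87), and 2279 bp were shared. It began 2324 bp from the TSS in WT and 2735 bp in Delta, so the distance of 2500 bp fell between them. The gene was therefore counted as a WT-only call although both genotypes had the peak, whereas at the other WT-only call, *Notch2*, Delta had no H3K27me3 peak. A WT-only H3K27me3 call was made at 7.04% of all genes and a Delta-only call at 4.91%. A short second H3K4me3 peak, of 619 bp in WT and 528 bp in Delta, lay in an intron inside the H3K27me3 peak of each genotype. H2AK119ub of 602 bp, with a fold enrichment of 4.22, was listed at the same place in WT alone.

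*Notch4* (plus strand, chr17:34701213-34725448), a receptor known mainly from endothelium, stood apart, with no peak of any mark within 2500 bp of its start in any of the 8 lists. Its start is CpG-poor, as the run above shows. The peaks counted at its gene body lay at its 3′ end. H3K4me3 there was 1763 bp in WT (fold enrichment 8.43) and 1712 bp in Delta (6.54), and H3K27ac was listed in Delta alone (1365 bp, 4.51). All 3 peaks began 22255 bp or more from the *Notch4* start, and all 3 reached the 2500 bp around a start of the neighbouring gene *Gpsm3*. From position alone they cannot be told apart from marks of *Gpsm3*.

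**Figure D3:**
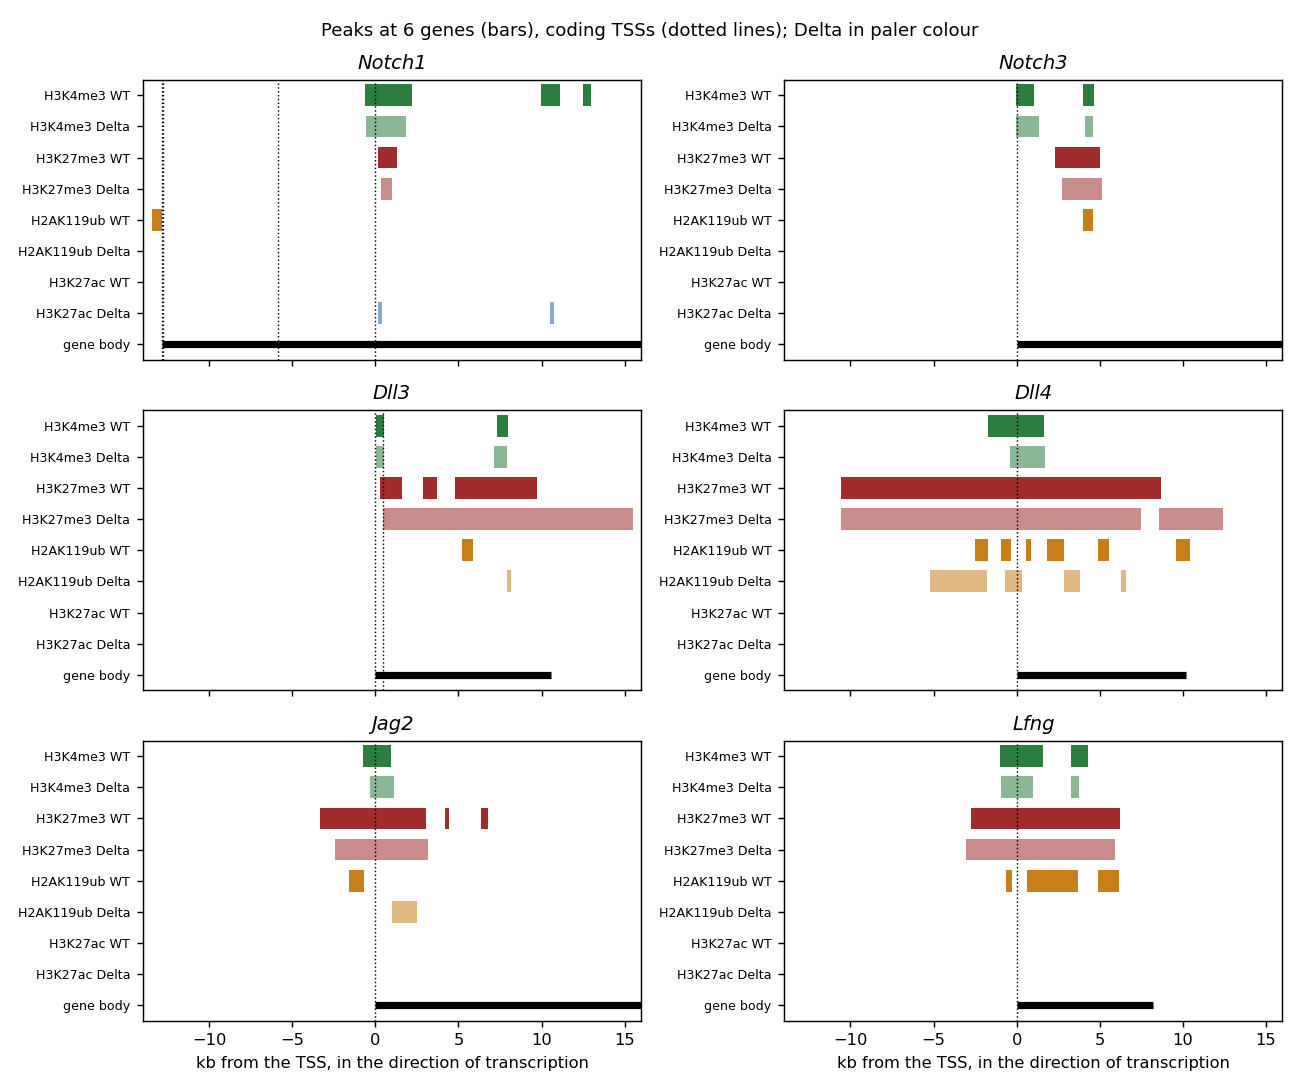
Peaks at *Notch1*, *Notch3*, *Dll3*, *Dll4*, *Jag2* and *Lfng* as bars in 8 rows (mark and genotype, Delta paler), with the gene body as a black bar, coding TSSs as dotted lines, and the x axis in kb from the TSS in the direction of transcription (for *Notch1*, from the start of its longest coding transcripts). At *Notch3* the H3K27me3 bars begin 2324 bp (WT) and 2735 bp (Delta) from the TSS, at *Dll3* the WT bars are in pieces where Delta has 1 peak of 15072 bp, and at *Lfng* the 3 H2AK119ub bars are in WT alone.

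Among the ligands, *Dll1*, *Dll4* and *Jag2* carried H3K4me3, H3K27me3 and H2AK119ub at the start in both genotypes. *Dll1* (minus strand, chr17:15504318-15513836), a ligand that drives somite formation, had near-equal extents in WT and Delta. H3K4me3 spanned 2422 and 2444 bp, and H3K27me3 spanned 13143 and 13293 bp, of which 13006 bp were shared. The H3K27me3 peak ran from position -9815 to 3327 around the TSS in WT, and from -10102 to 3190 in Delta. It covered all of the H3K4me3 peak in each genotype. H2AK119ub was 1366 bp in 1 WT peak within the gene, and 498 and 420 bp in 2 Delta peaks, 1 in the gene and 1 upstream of it. The first Delta peak shared 492 bp with the WT peak and the second shared none.

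*Dll4* (plus strand, chr2:119151520-119161698) encodes the ligand of arterial endothelium and had the longest H3K27me3 peak of the set. Its length was 19241 bp in WT (fold enrichment 8.37) against 18043 bp in Delta (9.15). It ran from 10541 bp upstream of the start in WT, and from 10546 bp upstream in Delta, deep into the gene. Delta had a second peak of 3837 bp over the 3′ end, of which 1888 bp were covered by WT peaks. In the gene with 5000 bp on each side, 77.5% was covered in WT and 80.9% in Delta. H3K4me3 at *Dll4* was 3408 bp in WT (5.03) and 2112 bp in Delta (3.78). Their upstream ends differed, since the WT peak began 1743 bp before the TSS and the Delta peak 396 bp before it. The log2 length ratio of -0.69 was above that of 7.0% of the 13324 genes with a peak in both lists, whose 5th to 95th percentiles were -0.80 to 0.44. With peaks up to 3000 bp apart joined, the Delta length rose to 5468 bp and the direction turned. H2AK119ub was split into 6 WT peaks, 5 of them under H3K27me3, and 4 Delta peaks, all under it. It reached the TSS window with 2761 and 4476 bp, but covered 28.1% and 27.7% of the gene with 5000 bp on each side.

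*Jag2* (minus strand, chr12:114146801-114167706), a ligand known from limb and craniofacial development, had the largest fall in H3K4me3 fold enrichment of the set. It was 8.01 in WT and 4.83 in Delta, a log2 ratio of -0.73 that was above that of 2.11% of genes, whose median was -0.15. The peak was 1636 and 1414 bp long. H3K27me3 over the same start went the other way, with fold enrichments of 5.96 and 8.29, a log2 ratio of 0.48 that was above that of 96.2% of genes. Fold enrichments in these lists were not scaled by the spike-in, so they cannot show a change in the level of a mark. Its main peak was 6365 bp long in WT against 5574 bp in Delta. A pair of short H3K27me3 peaks further into the gene, of 244 and 437 bp, were listed in WT alone. H2AK119ub was listed on opposite sides of the start, upstream in WT (945 bp, from position -1606 to -662 around the TSS) and in an intron in Delta (1546 bp, from 972 to 2517). The gene was thus called in both genotypes from peaks that shared no base.

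*Jag1* (minus strand, chr2:136907192-136942380) encodes a ligand expressed by endothelium and required for definitive blood. It had 1 H3K4me3 peak and 1 H3K27me3 peak, nearly coextensive, over its start, and no H2AK119ub or H3K27ac in any list. The H3K4me3 peak was 3319 bp long in WT against 3483 bp in Delta, and the H3K27me3 peak 2836 bp against 2812 bp. The H3K27me3 fold enrichment was 6.12 in WT and 7.96 in Delta, a log2 ratio of 0.38 that was above that of 92.6% of genes. In length the WT and Delta peaks at *Jag1* were among the most alike of the set, with log2 ratios of 0.07 and -0.01.

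*Dll3* (minus strand, chr7:29076673-29087257), a divergent ligand that does not activate receptors on neighbouring cells and acts in somites, differed most in the layout of H3K27me3. In WT the gene held 3 peaks, of 1285, 844 and 4901 bp, the first 2 of which came within 2500 bp of a start. In Delta it held 1 peak of 15072 bp that ran from the start past the 3′ end of the gene. The log2 ratio of summed TSS length was 2.82, above that of 99.6% of genes. Of the Delta peak, 10808 bp were also covered by WT peaks. With peaks up to 3000 bp apart joined, WT had 14417 bp. At a TSS distance of 5000 bp the WT sum was 7030 bp. The size of the ratio thus depended on which WT pieces were counted and on whether they were joined. The gene with 5000 bp on each side was covered to 53.3% in WT, in 4 pieces, and to 73.2% in Delta, in 1. The fold enrichment at the start was 4.81 and 4.61, and both genotypes also reached the start of the neighbouring gene *BC089491*. H3K4me3 over the *Dll3* start was the shortest and weakest of the 9 genes that had it (466 bp and 3.14 in WT, 459 bp and 3.03 in Delta). The −log10 q was 1.9 in WT and 1.42 in Delta, and neither peak was kept at a −log10 q of at least 3. A stronger H3K4me3 peak in WT lay within the gene, 676 bp and 6.28, against 791 bp and 3.73 in Delta, under H3K27me3 in both. H2AK119ub peaks of 638 bp in WT and 241 bp in Delta lay in the gene body and shared no base.

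*Lfng* (plus strand, chr5:141083295-141091497), whose product is the Fringe enzyme of the somite clock, showed the largest difference of the set in H2AK119ub coverage. WT had 3 H2AK119ub peaks, of 339, 3071 and 1287 bp, with fold enrichments of 3.30, 3.51 and 3.45, which covered 25.8% of the gene with 5000 bp on each side. Delta had none. All 3 lay within the H3K27me3 peak of WT. That peak itself was nearly the same in extent in both lists, 8967 and 8952 bp with 8614 bp shared, and its fold enrichment was 7.31 and 6.62. H3K4me3 at the start was 2576 bp long in WT against 1931 bp in Delta. In fold enrichment it went the other way, 3.83 against 4.32. A second H3K4me3 peak in an intron was 986 and 501 bp long.

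Calls of H2AK119ub in WT alone, at *Notch1* and *Lfng*, stood beside 5.08% of all genes called in WT alone and 0.863% called in Delta alone. The Delta list of this mark was shorter as a whole, with 2388 peaks against 4922 in WT. At the 10 genes there were 14 WT and 8 Delta peaks, a ratio of 0.571 (95% Wilson-based interval 0.246 to 1.33, counting error only), which contained the ratio of 0.485 of the whole lists. All of these H2AK119ub peaks were weak, with −log10 q values from 1.43 to 2.70 in WT and from 1.53 to 2.73 in Delta. None reached a −log10 q of 3. When only peaks with a fold enrichment of 4 or more were kept, a choice made with the values in view, 4 WT and 5 Delta peaks were left and the direction turned. The part of the length of each list in the WT-only listings was not tested. Of the 14 WT peaks 12 were overlapped by H3K27me3, as were all 8 in Delta, where the whole lists gave 74.8% and 94.7%.

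WT peaks of H3K4me3 and H3K27me3 had a Delta counterpart more often than those of H2AK119ub. Of the 15 WT H3K4me3 peaks at the 10 genes, 13 had a Delta counterpart, meaning an overlap of at least 1 bp (86.7%, whole list 92.1%). Of 13 WT H3K27me3 peaks, 10 had one (76.9%, whole list 73.5%). Of 14 WT H2AK119ub peaks, 4 had one (28.6%, whole list 31.5%). The single WT H3K27ac peak, at *Notch2*, had one (whole list 73.5%). In the other direction, all 13 Delta H3K4me3 peaks (whole list 96.0%) and all 9 Delta H3K27me3 peaks (75.3%) had a WT counterpart. So did 4 of 8 Delta H2AK119ub peaks (67.2%) and 1 of 4 Delta H3K27ac peaks (63.7%), the latter again at *Notch2*. Among WT H3K27me3 peaks, long ones had a counterpart more often than short ones, here as in the whole list. When the list was cut by length into 4 parts of equal number, all 5 WT H3K27me3 peaks in the longest part had a counterpart (whole list 99.8%) and 0 of the 3 in the shortest part did (whole list 40.2%). Those 3 were the *Notch2* peak and the pair of short peaks in *Jag2*. For WT H2AK119ub the order was not kept here, with 1 of 3 peaks in the longest part (whole list 65.4%) and 2 of 4 in the next (27.4%). H3K4me3 peak numbers were 15 and 13, H3K27me3 13 and 9, and H3K27ac 1 and 4. The ratios were 0.867 (0.419 to 1.79), 0.692 (0.303 to 1.58) and 4.00 (0.601 to 26.6), and each interval contained the ratio of the whole lists, 0.961, 0.959 and 1.15.

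Lengths at the start were read against the spread of all genes with a peak in both lists. For H3K4me3 the median log2 ratio of Delta to WT was -0.21 over the 9 genes and -0.11 over 13324 genes. An H3K4me3 call in WT alone was made at 1.06% of all genes, in Delta alone at 0.684%, and at none of the 10 here. For H3K27me3 the median was -0.01 over 7 genes and 0.01 over 6216 genes, whose 5th to 95th percentiles were -1.27 to 1.14. Only *Dll3* lay outside the 5th to 95th percentiles in length for these marks. In fold enrichment, *Jag2* lay outside them for both marks, low in H3K4me3 and high in H3K27me3. No replicate library gives the spread against which these single values could be tested.

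**Figure D4:**
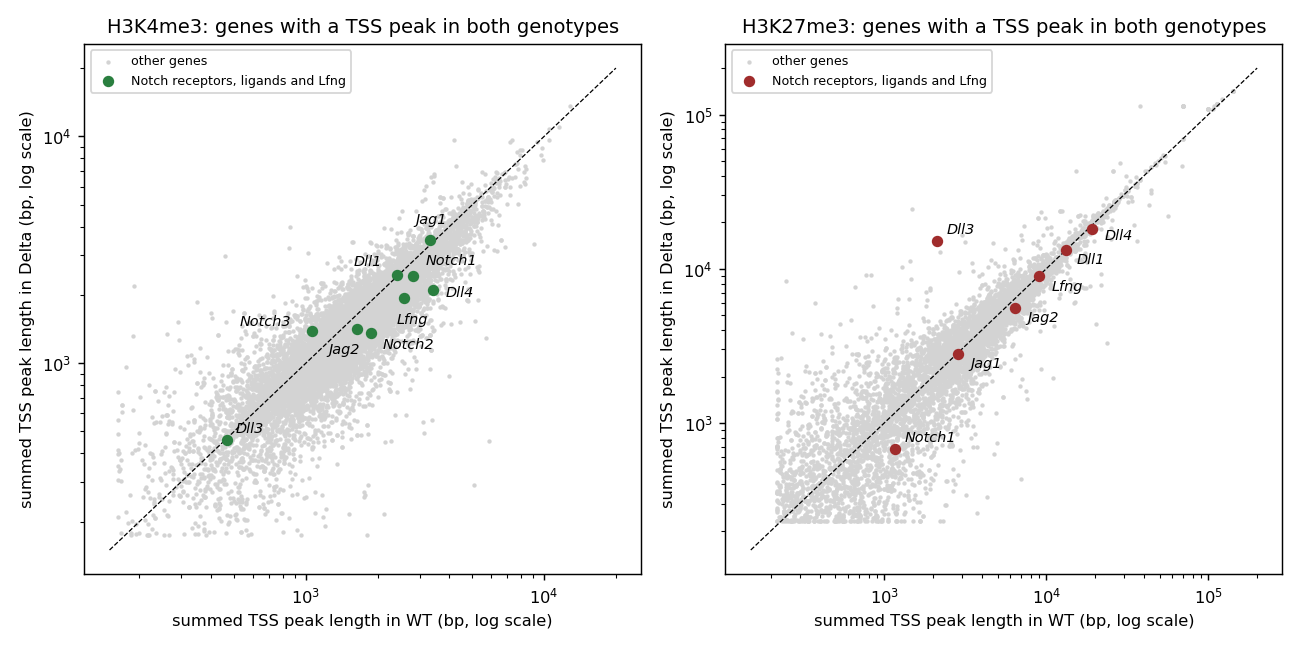
Summed TSS peak length in Delta (y axis) against WT (x axis), both in bp on log scales, for genes with a peak in both genotypes, H3K4me3 left and H3K27me3 right, with the genes of the Notch set in colour, all others in grey and the dashed line at equality. *Dll3* lies far above the line in H3K27me3 (2129 bp in WT, 15072 bp in Delta), and the other 6 genes lie nearer to it, from log2 ratios of -0.79 at *Notch1* to 0.02 at *Dll1*.

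**Figure D5:**
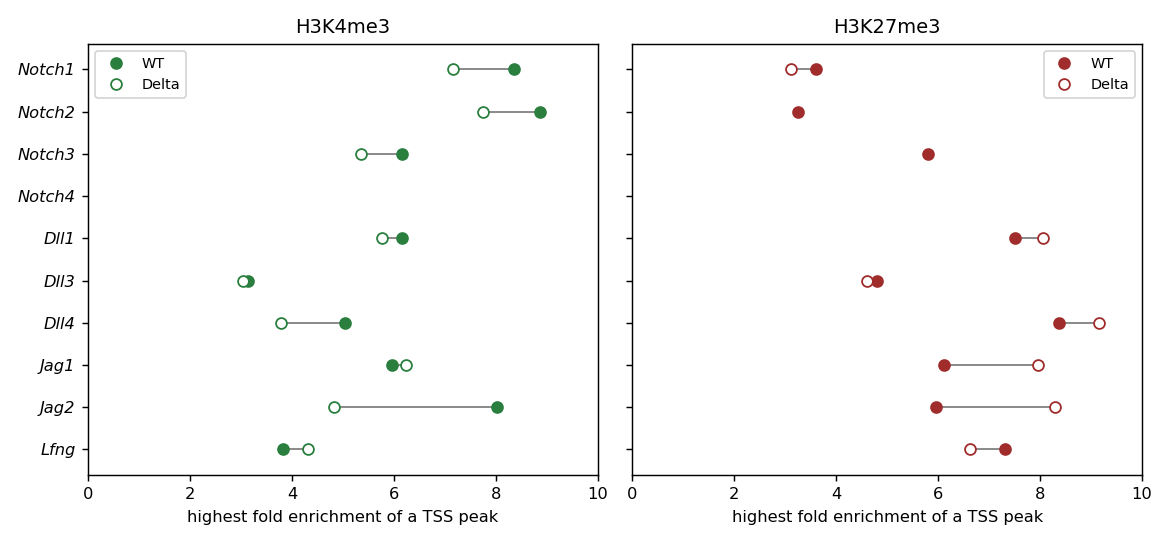
Highest fold enrichment over local background of a peak within 2500 bp of a coding TSS (x axis, as deposited) for each gene (y axis), filled for WT and open for Delta, 1 library each, H3K4me3 left and H3K27me3 right. *Jag2* shows the widest gap in both panels, 8.01 to 4.83 in H3K4me3 and 5.96 to 8.29 in H3K27me3, and points are missing where no TSS peak was listed.

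H3K4me3 and H3K27me3 also met on the same bases. Of the 9 H3K4me3 peaks at starts, 8 in WT were overlapped by H3K27me3 and 7 in Delta, where 51.1% and 47.7% of all genes' TSS peaks were. The exceptions were *Notch3* in both genotypes and *Notch2* in Delta. The H3K4me3 peaks of *Dll1*, *Dll4*, *Jag2* and *Lfng* were covered by H3K27me3 over their whole length in both genotypes, against 22.2% of all genes' TSS peaks in WT and 21.6% in Delta. At the receptors the overlap was partial, 41.7% of the peak at *Notch1* and 19.1% at *Notch2* in WT, and 27.9% and 0.0% in Delta. It was also partial at the ligands *Dll3* (41.6% in WT, 12.9% in Delta) and *Jag1* (85.4% and 80.7%), so partial overlap did not set receptors apart from ligands.

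The rest of the pathway was followed in 38 further genes. Of these, 36 had H3K4me3 at the start in both genotypes (60.7% of all genes in WT and 60.3% in Delta). The exceptions, *Mfng*, another Fringe enzyme, and *Maml2*, a coactivator, had no peak of any mark at the start. H3K27me3 was called at 24 in WT and 22 in Delta (34.8% and 32.7% of all genes), H2AK119ub at 9 and 4 (9.21% and 5.0%), and H3K27ac at 16 and 18 (19.9% and 22.8%). The 7 target genes of the Hes, Hey and Nrarp families had H3K27me3 in both genotypes. H3K27ac was present at 2 targets in WT and 3 in Delta, the addition being *Hey1*, a transcriptional repressor, with 1430 bp of H3K27ac in Delta and none listed in WT. *Hey1* also had H2AK119ub of 308 bp in WT alone. *Nrarp*, a feedback inhibitor of Notch, had H2AK119ub in WT alone (641 bp) and H3K27ac in both (487 bp in WT, 1491 bp in Delta). Calls of H3K27ac in Delta alone were made at *Numb*, *Numbl* and *Hey1* (6.37% of all genes), and in WT alone at *Pofut1* (3.43%). NUMB and NUMBL inhibit Notch, and POFUT1 adds the fucose that Fringe extends. Calls of H2AK119ub in WT alone were made at 7 of the 38 (*Rfng*, *Neurl1a*, *Dlk2*, *Dner*, *Hey1*, *Heyl* and *Nrarp*) and in Delta alone at 2 (*Dtx1* and *Hes7*), where all genes gave 5.08% and 0.863%. H3K27me3 was called in WT alone at 5 (*Mib1*, *Itch*, *Psenen*, *Maml1* and *Snw1*) and in Delta alone at 3 (*Poglut1*, *Furin* and *Maml3*), where all genes gave 7.04% and 4.91%. H3K27ac was called at 5 of 8 proteases and 5 of 6 nuclear factors in each genotype, and H2AK119ub at none of them.

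The label of the cells was checked against marker genes. All 8 haemangioblast and mesoderm markers had H3K4me3 at the start in both genotypes, and 7 of them also had H3K27me3. Among all genes the shares were 60.7% in WT and 60.3% in Delta for H3K4me3, and 34.8% and 32.7% for H3K27me3. H3K4me3 did not set these markers apart, since it was also called at 3 of 3 neural and 3 of 4 endoderm markers in both genotypes, and at 2 of 4 pluripotent markers in WT and 3 in Delta. The endoderm markers called were *Sox17*, *Foxa2* and *Sox7*, of which the study counts *Sox17* among endothelial genes. H3K27ac was called at 3 of the 8 haemangioblast and mesoderm markers in WT (*Tal1*, *Lmo2* and *Gata2*) and at 1 in Delta (*Hand1*). No H3K27ac was called at a marker of endothelium, pluripotent cells, endoderm or neural cells in either genotype, over 15 markers found. Among all genes H3K27ac was called at 19.9% in WT and 22.8% in Delta. H3K4me3 was called at 3 of 4 endothelial markers in WT and 1 in Delta, and *Pecam1* had no peak. The haemangioblast and mesoderm markers with an H3K27ac call thus differed between the single WT and Delta libraries. The *Gata2* peak was short, at 189 bp, and *Kdr*, *Pdgfra*, *Etv2* and *Mesp1* had no H3K27ac call in either genotype. Among all genes an H3K27ac call was made in WT alone at 3.43% and in Delta alone at 6.37%. The study reports that a far larger share of mCherry+ cells carried the surface protein PDGFRα in the Delta line than in the WT line. It ties that protein to cardiac and paraxial potential. Those cells were sampled slightly later than the ones used here, and at that stage the lines differed in their mix of cells. For EBs at a stage slightly earlier than the one used here, the study reports similar shares in both lines. This held for mCherry+ cells and for cells with the surface proteins FLK1 and PDGFRα. The mix at the stage used here, and its part in the values at the Notch genes, was not tested. At *Tal1*, the gene that encodes SCL, H3K27ac was 1833 bp in WT with none listed in Delta, and the lists do not show the deletion itself.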

How the data were processed

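The study measured 4 histone marks by ChIP-Rx in mCherry+ day 4 EB cells of 2 lines, in 1 library each. According to the study's methods and the submitters' processing notes, reads were mapped with Bowtie to mm9 and dm3, duplicates were removed, and broad peaks were called per library, without pooling, with MACS2 2.0.10 against that genotype's input. The spike-in was used to scale signal densities only, so the lists cannot show a change in level across the genome. From scaled signal at start sites and from western blots, the study reports a global fall of both H3K27me3 and H2AK119ub in Delta. The deposited lists give for each peak a position, a fold enrichment (a ratio made by the authors), −log10 p-values and q-values, and a score made by the authors that lay within 1.0 of 10 times the −log10 q and was not used. No listed q-value exceeded 0.05. The lists give no read depth, and all intervals cover counting error only.

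Genes and coding TSSs came from GENCODE M1 on NCBIM37 (mm9), with 13 mitochondrial genes left out. Coordinates are 1-based. A peak belonged to a gene when it came within 2500 bp of a coding TSS or overlapped the gene body. Lengths are whole lengths of peaks. With 1 library a group no test was run, and counts were set beside the same count over all genes. Shares and ratios have 95% Wilson intervals. The genes and lists were chosen with earlier results of these data known. Named genes are the 10 genes, pathway genes whose call differed between genotypes or that had no peak at the start, neighbours whose start a peak reached, and markers. Of those, *Mfng*, *Maml2* and the markers named were picked out after their values were seen. Of 24 marker genes 23 were found by symbol. Alternatives tried were keeping peaks with −log10 q ≥ 3, with fold enrichment ≥ 3 or ≥ 4, TSS distances of 1000 and 5000 bp, 500 bp of the window covered, joining of peaks up to 3000 bp apart, a single TSS and 50% coverage. Overlaps were tested on simulated data and checked against bedtools 2.31.1. Analyses were run in Python 3.11.15 with pandas 2.3.3 and SciPy 1.17.1, and figures in Matplotlib 3.10.9.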

Additional observations from a re-analysis of the deposited data

How the results depend on the processing

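No paired analysis was possible because each mark and genotype had 1 library and no test was run. Peak lists hold only what passed the authors' threshold, so a gene without a peak may carry a weaker signal, and the read totals that the study lists per library were not used here. With a −log10 q of at least 3, H2AK119ub was called at 0 of the 10 genes in either genotype, with 0 differing, so its ratio and counterpart share gave no value; H3K27ac was called at 1 in Delta with 0 differing, and all 11 WT H3K4me3 peaks left had a counterpart (100%). With only peaks of a fold enrichment ≥ 4 kept, an alternative chosen after seeing the data, the calls differed at 2 genes for H3K4me3, 1 for H3K27me3 and 0 for H3K27ac. H2AK119ub was then called at 1 gene in WT and H3K27ac at 1 in Delta. H3K4me3 and H3K27me3 then met at 5 genes in WT and 4 in Delta, and the counterpart shares were 100% for H3K27me3 and 0.0% for H2AK119ub. With a −log10 q of at least 3, H3K4me3 and H3K27me3 met at 7 genes in WT and 5 in Delta. When 500 bp of the window had to be covered they met at 6 in WT and 6 in Delta. The shares of all genes under these alternatives were not counted. The number of genes with a differing H3K27me3 call was 1 at a TSS distance of 1000 bp, 1 at 5000 bp and 0 when 500 bp of the window had to be covered. That of H2AK119ub was 4 at 5000 bp. H3K27ac was called at 0 genes in either genotype, with 0 differing, when 500 bp had to be covered, and at 1 in Delta, with 0 differing, with a single TSS per gene. A fold enrichment of at least 3 and joining of peaks moved none of 22 results, and 50% coverage none of 4. Joining did move 11 of the 80 summed TSS lengths. Of 25 pairs of gene and mark whose summed TSS lengths differed between genotypes, the direction turned for *Dll1* H3K4me3 at 5000 bp, for *Dll1* H2AK119ub and *Dll4* H3K4me3 with joined peaks, and for *Dll1* and *Jag2* H2AK119ub and *Lfng* H3K4me3 at a fold enrichment of at least 4. The cause of these turns was not tested. Other pairs had no peak left in either genotype, 8 at a −log10 q of at least 3 and 6 at a fold enrichment of at least 4. So did 5 with 500 bp covered, 3 with a single TSS and 2 at 1000 bp.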

Other observations

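Within 50000 bp of the 10 genes but outside them, H3K27ac was listed in WT and in Delta near *Dll3* and *Notch1* and in WT near *Notch4*, nearly always at the start of another gene. The exception was a Delta peak of 1330 bp with a fold enrichment of 4.14, at chr2:26380993-26382322, 8810 bp upstream of the most upstream *Notch1* start. It reached no coding TSS and had no WT counterpart. The H3K27ac peaks at the downstream *Notch1* start (267 bp) and in the intron (285 bp) were also listed in Delta alone. No H3K27ac peak was listed in WT alone within the same distance of that gene. Of all 5269 Delta H3K27ac peaks, 63.7% had a WT counterpart, and the WT list was shorter, with 4571 peaks. The share was 45.1% for Delta peaks of 164 to 306 bp, which takes in the peaks of 267 and 285 bp. It was 84.1% for those of 862 to 7193 bp, which takes in the peak of 1330 bp. Whether *Notch1* gained H3K27ac in Delta was not tested.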
